A study of Drosophila melanogaster with 6 samples.

Results

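The 7 genes described here (*EcR*, *usp*, *br*, *Eip74EF*, *Eip75B*, *Eip93F* and *ftz-f1*) form the core of the transcriptional response to ecdysone, the steroid hormone that times moulting and metamorphosis. They were chosen by name, with earlier results of these data known. The chromatin accessibility at them was read from ATAC-seq peaks, as a check on the developmental timing of the discs. A peak was counted for a gene when it overlapped the gene body or the 5 kb on either side of it. Peaks of the 6 libraries that overlapped one another were merged into regions, of which 206 of the 45905 regions of the genome lay at the 7 genes. All 7 genes had at least 1 region with a peak in all 6 libraries, and 117 of the 206 regions (56.8%) had one in all 6, against 19441 of the 45905 regions of the genome (42.4%). The accessible sites of these genes were mostly intronic, and the strongest of them, at the start of the *ftz-f1-RB* transcript, ranked among the 24 strongest peaks of every library. Between genotypes, none of the 117 regions with a peak in all 6 libraries passed the test at an adjusted p of 0.05. The other regions of the 7 genes did not enter this test.

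ATAC-seq reads out open chromatin as the places where a transposase can cut and tag the DNA, and a peak is a place with an excess of such cuts. The tissue was the wing imaginal disc of *Drosophila melanogaster* larvae, the epithelium from which the adult wing and part of the thorax form. All 3 genotypes carried *tub-Gal4*, which drives transgenes in all cells, together with *tub-Gal80*, in the study's methods the temperature-sensitive form (Gal80ts), which blocks it in the cold. The driver expressed *GFP* in the control, RNAi against *Cdk1* (*Cdk1-i*) or *fzr*. The study's methods state that 2 *Cdk1* lines were combined for a stronger knockdown in the figures that include the ATAC-seq. Cdk1 is the kinase that brings cells into mitosis, and Fzr activates the ubiquitin ligase that degrades mitotic cyclins. Larvae spent 7 days at 17 °C and then 2 days at 31 °C, and the discs of each genotype were pooled into 2 libraries. Discs are whole tissues, so that fewer cells with an open site and a less open site per cell cannot be told apart.

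For 4 libraries the name of the peak list and the sample label disagree, since *Cdk1-i* and *fzr* are swapped between them. Libraries are called here by their labels, and under the file names every value given for *Cdk1-i* is that of *fzr* and the reverse. Peaks numbered 36715 and 35404 in the control libraries, 36617 and 36100 in *Cdk1-i*, and 33335 and 27119 in *fzr*. Without counts of reads in these lists, depth is unknown. The second *fzr* library stood apart, with the shortest list and with peaks on X at 14.1% of the autosomal number, against 18.5% to 19.6% in the other libraries. This touches *br* and *usp*, which lie on X. Of the marker genes looked at, a peak at a transcript start was found in all 6 libraries for 7 of 7 wing disc genes, 2 of 3 myoblast genes, 2 of 3 hemocyte genes, 1 of 2 tracheal genes, 2 of 2 genes of neurons and glia and 0 of 2 fat body genes. The hemocyte gene *He*, the myoblast gene *twi* and the fat body genes *Lsp1alpha* and *Lsp2* had no peak at a start in any library, and the part of these cell types in the values below was not tested.

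Ecdysone acts through a heterodimer of 2 nuclear receptors, the ecdysone receptor EcR and Ultraspiracle (Usp), the fly homologue of RXR. The bound receptor directly induces early genes that encode transcription factors, among them the zinc finger proteins of *broad* (*br*), the ETS protein of *Eip74EF* and the nuclear receptor of *Eip75B*. These regulate later genes, and *ftz-f1*, a nuclear receptor expressed when the hormone is low, makes prepupal tissues competent for the next pulse. *Eip93F*, a helix-turn-helix protein, acts after it and opens and closes enhancers during pupal wing development. In larval wing discs, a rising hormone level at the end of the third instar starts the eversion of the disc.

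The number of peaks differed more between genes than between genotypes. *Eip75B* had 49 peaks in both control libraries, *br* 43 and 33, *EcR* 34 and 31, *Eip74EF* 22 and 21, *Eip93F* 16 and 13, *ftz-f1* 14 and 15, and *usp* 2 and 2. Per 10 kb of gene and flanks, the control mean was 3.96 peaks for *Eip75B*, 3.81 for *br*, 3.56 for *EcR*, 3.04 for *Eip74EF*, 2.39 for *ftz-f1*, 1.92 for *Eip93F* and 1.48 for *usp*, beside a median of 2.24 over 13945 protein-coding genes. In that distribution *Eip75B* stood at the 86.7th percentile, *ftz-f1* at the 54.2nd and *usp* at the 30.6th. The receptor subunits thus lay on opposite sides of the median, *EcR* at the 80.3rd percentile and *usp* well below.

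In *Cdk1-i*, *Eip75B* had 46 peaks in both libraries, *br* 39 and 41, *EcR* 33 and 35, *Eip74EF* 20 and 19, *Eip93F* 15 and 14, *ftz-f1* 15 and 16, and *usp* 2 and 2. In *fzr*, *Eip75B* had 51 and 38 peaks, *br* 44 and 25, *EcR* 36 and 26, *Eip74EF* 23 and 22, *Eip93F* 16 and 11, *ftz-f1* 13 and 13, and *usp* 3 and 1. Both *Cdk1-i* libraries lay below both controls for *Eip75B* and *Eip74EF*, and both *fzr* libraries lay below both controls for *ftz-f1* alone, each by 1 to 3 peaks. For the other genes the libraries overlapped, and the lower count of *fzr* came from its second library, the one with the shortest list. With 2 libraries against 2 the smallest exact two-sided permutation p is 0.333, so these counts were not tested.

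**Figure D1:**
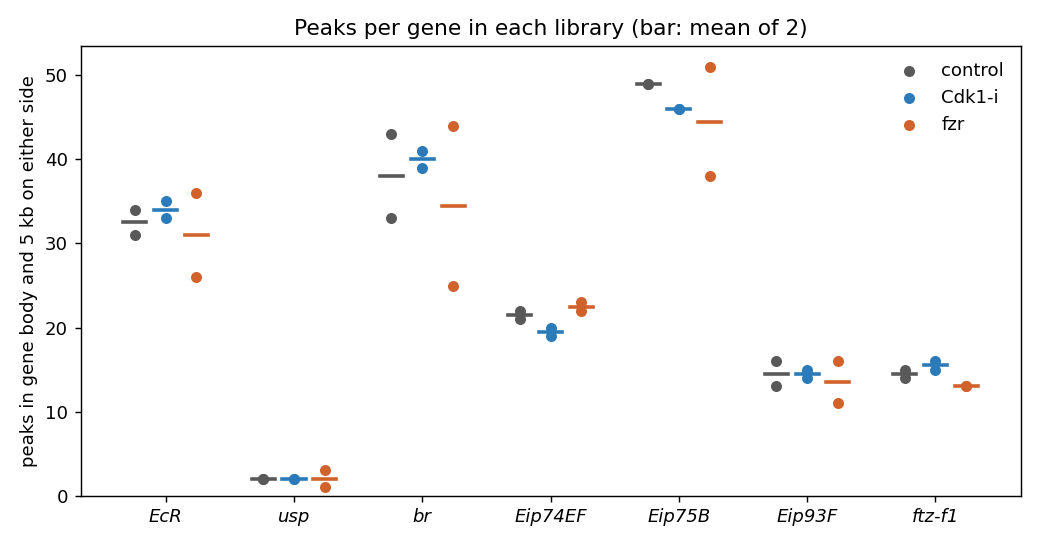
Number of peaks at each of the 7 genes (y axis) in each library (points, 2 per genotype) with the mean of the 2 libraries (bars). Genes are spread from 2 peaks for *usp* to 49 for *Eip75B* in the controls, and the 2 *fzr* libraries lie far apart for *br* (44 and 25) and *Eip75B* (51 and 38).

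Most peaks at these genes were intronic. A peak was called promoter when it reached within 500 bp of a transcript start of the gene, flanking when it lay outside the gene body, exonic when it overlapped an exon of the gene, and intronic otherwise. The intronic share was 76.1% ± 1.57 in control, 77.6% ± 0.959 in *Cdk1-i* and 75.0% ± 1.09 in *fzr* (SD, n = 2). The promoter share was 11.7% ± 0.767, 11.7% ± 0.680 and 13.7% ± 0.375 in the same order. Both *fzr* libraries (13.4% and 13.97%) lay above the other libraries (11.1% to 12.2%). Over the whole lists, the share of peaks near any annotated transcript start was also highest in *fzr*, at 21.9% and 22.6%, against 19.0% to 20% elsewhere. Of the merged regions, 17 of 24 promoter regions (70.8%) were found in all 6 libraries, against 88 of 154 intronic (57.1%) and 8 of 22 flanking regions (36.4%). Of the 206 regions, 20 also lay near the start of another gene, 7 of them at *EcR*.

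The strength of a peak is given as its percentile, by fold enrichment over the local background, within the list of its own library, where 100 is the strongest peak. Over the 117 regions found in all libraries, the median percentile was 73.7 and 77.8 in control, 70.8 and 73.6 in *Cdk1-i*, and 73.3 and 69.8 in *fzr*. Over all 19441 shared regions of the genome it was 69.5 and 68.6 in control, 69.5 and 69.3 in *Cdk1-i*, and 64.3 and 59.8 in *fzr*, so that the regions of the 7 genes had the higher median in each library. For a single region of these genes, the replicates of a genotype differed by a median of 6.75 points in control, 3.05 in *Cdk1-i* and 6.87 in *fzr*.

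**Figure D2:**
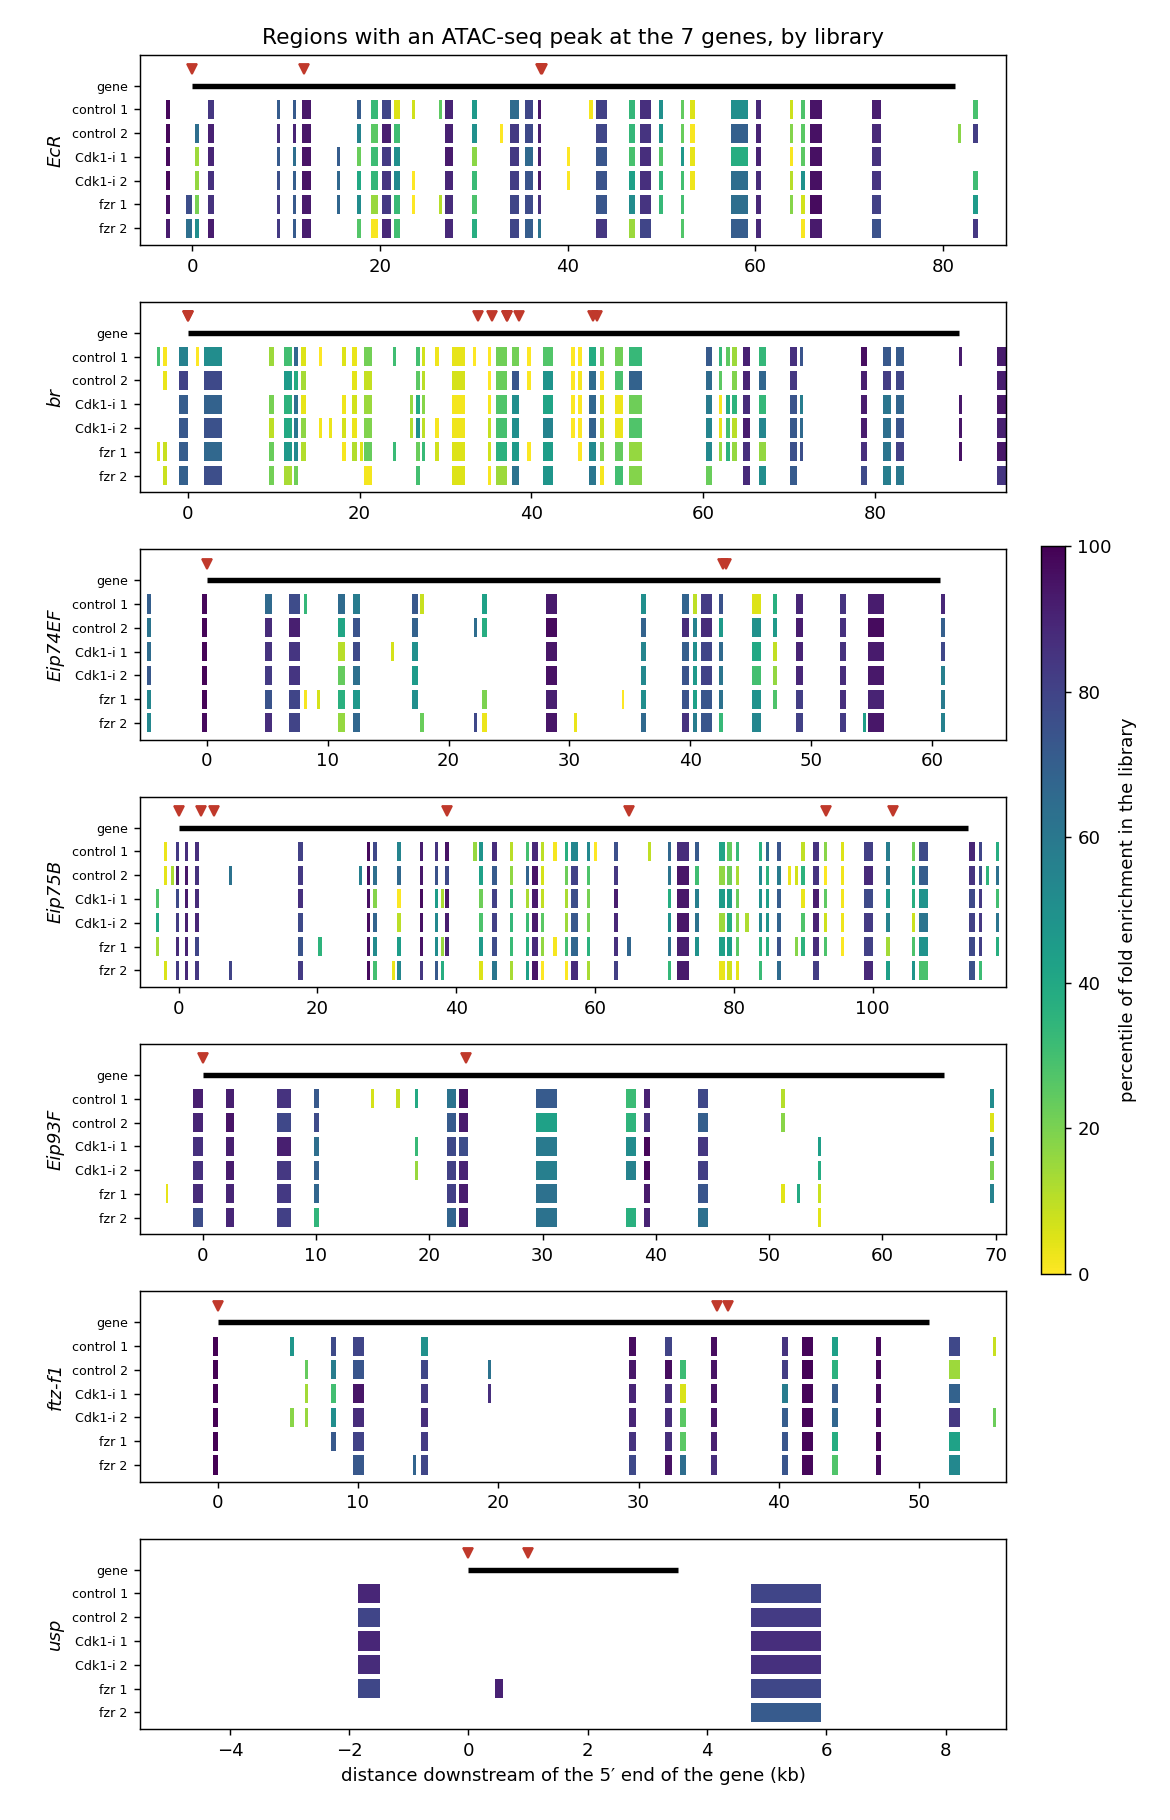
Regions with a peak at each gene (x axis, distance in kb downstream of the 5′ end of the gene) in each library (rows), coloured by the percentile of fold enrichment in that library, with the gene body as a black bar and transcript starts as red triangles. Narrow regions are widened to stay visible. Most strong regions (dark) recur in all 6 rows, most of the weak ones (yellow) do not, and *usp* has almost no peak within the gene body. Some strong regions are missing from a row, such as the *br* flank 1664893–1665086 in control replicate 2 and *fzr* replicate 2.

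*EcR* (FBgn0000546, 2R 6087873–6169087, minus strand), the hormone-binding subunit, had 36 regions, 29 of them intronic, and 23 were found in all libraries. The starts of *EcR-RD* and *EcR-RE* had a strong peak in every library, at percentiles 93.6 and 94.1 in control, 94.7 and 94.9 in *Cdk1-i*, and 93.0 and 91.9 in *fzr*. At the downstream starts of *EcR-RB*, *EcR-RC* and *EcR-RG* the percentile was 94.1 and 91.3 in control, 91.3 and 93.2 in *Cdk1-i*, and 85.8 and 61.8 in *fzr*. Both *fzr* libraries were below the others at this promoter, the second by far more than the first. The first start of the gene, that of *EcR-RA*, had a peak in 4 of the 6 libraries, namely control replicate 2, *Cdk1-i* replicate 2 and both *fzr* libraries, at percentiles 64.1, 16.3, 76.4 and 63.9. The peaks of control and *Cdk1-i* lay in a region inside the gene (6168337–6168744), and the strongest peaks of both *fzr* libraries in a separate region at the start itself (6169051–6169734) where no other library had one and which is also near the start of a tRNA gene, *tRNA:Arg-ACG-1-3*. The strongest region of the locus in the controls lay upstream of the gene (6171423–6171820), at percentiles 97.9 and 98.3, and is also near the starts of 2 tRNA genes.

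*usp* (FBgn0003964, X 2038798–2042311, minus strand) encodes the partner of EcR and is much shorter, without an intronic peak in any library. Its 2 starts had a peak in *fzr* replicate 1 alone, 143 bp long, at percentile 90.7 and also near starts of *Actn* and *CG4313*. That is shorter than the shortest peak of any other library, where the minimum ranged from 160 to 197 bp. The other regions flank the gene and lie near starts of neighbouring genes. The downstream region (2036401–2037572), near a start of *Actn*, stood at percentiles 79.3 and 82.6 in control, 86.8 and 86.2 in *Cdk1-i*, and 78.6 and 71.8 in *fzr*. The upstream region (2043790–2044165), near a start of *CG4325*, had a peak in all libraries but *fzr* replicate 2.

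*br* (FBgn0283451, X 1575132–1664869, plus strand), whose spliced zinc finger isoforms are needed for entry into metamorphosis, had 46 regions, of which 23 were found in all libraries. It has 9 distinct transcript starts, and the strongest of their peaks stayed below the strongest start of *Eip74EF* and of *Eip75B* in every library. At the most upstream start, of *br-RN* and *br-RO*, the percentile was 56.4 and 80.2 in control, 70.7 and 72.8 in *Cdk1-i*, and 71.0 and 69.8 in *fzr*. At the start shared by 8 transcripts (1612341) it was 21.5 and 10.01 in control, 27.6 and 29.6 in *Cdk1-i*, and 6.64 and 14.8 in *fzr*. Here, within 500 bp of the start, both *Cdk1-i* libraries were above all the others, and the *fzr* libraries overlapped the controls. Over the whole merged region (1611058–1612278), *fzr* replicate 1 stood above both *Cdk1-i* libraries, at percentile 36.2. The log2 change of that region was 0.077 in *Cdk1-i* and 0.18 in *fzr* (limma adjusted p = 0.912 and 0.715). The peak at *br-RC* stayed below percentile 9 in every library (0.0763 to 8.72), and that at *br-RH* was found in control replicate 1 alone. The control libraries differed most from each other at the *br-RI* start, with percentiles 21.4 and 73.2. The strongest control region was an intron of the 3′ part (1653438–1654195), at percentiles 96.2 and 91.6 in control, 92.3 and 92.5 in *Cdk1-i*, and 86.5 and 77.4 in *fzr*. Both *fzr* values lay below the controls there. Over X as a whole, the median percentile of shared regions on X was 71.1 and 63.1 in *fzr* against 73.9 to 75.1 in the other libraries, and off X it was 63.2 and 59.3 against 67.5 to 68.8.

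*Eip74EF* (FBgn0000567, 3L 17558672–17619325, minus strand) encodes ETS proteins from a long and a short nested transcription unit. In salivary glands and other tissues the short unit responds to low and the long unit to high hormone. Of its 28 regions, 23 were intronic. The start of the long unit, shared by *Eip74EF-RA*, *Eip74EF-RC* and *Eip74EF-RE* (region 17619284–17619754), was among the strongest regions of the genome in each library. Its fold enrichment was 13.98 and 12.8 in control, 18.5 and 18.8 in *Cdk1-i*, and 19.2 and 9.80 in *fzr*, which put it at percentiles 98.4, 98.9, 98.9, 99.2, 98.8 and 97.4 of the lists. At the starts of the short unit, *Eip74EF-RB* and *Eip74EF-RD*, the percentile was 74.6 and 46.3 in control, 65.8 and 61.1 in *Cdk1-i*, and 62.5 and 32.9 in *fzr*. The long unit thus had the stronger peak in every library, and the genotypes overlapped at the short one. The 200 bp around the summit of the long unit's start are printed here in the direction of the gene, from the dm6 reference (chr3L:17619302-17619501, minus strand), with capitals on matches to GAGAG or its reverse complement, the core of the element bound by GAGA factor. It is shown because it is the strongest start among the 3 early genes.
Eip74EF-RA/RC/RE start: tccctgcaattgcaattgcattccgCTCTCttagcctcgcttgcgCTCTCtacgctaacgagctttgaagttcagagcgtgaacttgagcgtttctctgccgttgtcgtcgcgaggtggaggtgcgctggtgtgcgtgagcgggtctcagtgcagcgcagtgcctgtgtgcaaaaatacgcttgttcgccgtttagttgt

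*Eip75B* (FBgn0000568, 3L 17950953–18064696, minus strand), a haem-binding nuclear receptor that represses Hr3 and so shapes the timing of *ftz-f1*, is the longest of the 7 genes and had most regions, 57, of which 43 were intronic. It has 7 transcript starts, each of a single transcript. The starts of *Eip75B-RF* and *Eip75B-RE*, near the 5′ end, had a peak in all libraries. At *Eip75B-RF* the percentile was 83.1 and 91.3 in control, 78.0 and 82.1 in *Cdk1-i*, and 87.9 and 82.7 in *fzr*. At *Eip75B-RE* it was 87.1 and 85.6 in control, 87.6 and 89.1 in *Cdk1-i*, and 79.5 and 83.9 in *fzr*. The start of *Eip75B-RG* was open in 5 libraries, at percentiles 95.0, 78.0, 93.6, 92.1 and 89.1, and had no peak in *fzr* replicate 2. Weaker peaks were found at *Eip75B-RD* and *Eip75B-RA* in 5 libraries each, at *Eip75B-RC* in *fzr* replicate 1 alone, and at *Eip75B-RB* in none. The strongest control region lay in an intron (18037050–18037556) and kept close percentiles throughout: 97.6 and 96.2 in control, 95.7 and 96.8 in *Cdk1-i*, and 95.7 and 97.1 in *fzr*.

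*ftz-f1* (FBgn0001078, 3L 18750607–18801309, minus strand) held the strongest region of the 7 genes. At the start of *ftz-f1-RB* (18801272–18801636) the fold enrichment was 23.8 and 20.7 in control, 35.5 and 32.6 in *Cdk1-i*, and 35.7 and 19.7 in *fzr*. This peak ranked 24th and 9th in the control lists, 1st and 4th in *Cdk1-i*, and 1st and 6th in *fzr*. The start was therefore near the top of every list. The median fold enrichment of all peaks was 3.56 and 3.09 in control, 3.97 and 3.82 in *Cdk1-i*, and 4.03 and 3.12 in *fzr*. After normalisation, the log2 change at this start was 0.30 in *Cdk1-i* and 0.29 in *fzr* (SE 0.19, limma adjusted p = 0.608 and 0.590). The region also lies near the start of the non-coding gene *lncRNA:CR45939*. The downstream start of *ftz-f1-RC* and *ftz-f1-RD* stood at percentiles 96.6 and 95.1 in control, 95.1 and 94.2 in *Cdk1-i*, and 91.1 and 86.8 in *fzr*. The start of *ftz-f1-RA* had no peak in any library. An intron region (18758876–18759661) was stronger than this downstream start in every library and weaker than the *ftz-f1-RB* start, at percentiles 98.8 and 99.3 in control, 98.7 and 98.5 in *Cdk1-i*, and 98.7 and 98.1 in *fzr*. Both are printed here, since they are the strongest promoter and the strongest intronic region of the 7 genes, with capitals on matches to GAGAG and to AGGTCA, the half-site of nuclear receptors, or their reverse complements. The promoter stretch is chr3L:18801287-18801486 and the intronic stretch chr3L:18759269-18759468, both on the minus strand of dm6.
ftz-f1-RB start: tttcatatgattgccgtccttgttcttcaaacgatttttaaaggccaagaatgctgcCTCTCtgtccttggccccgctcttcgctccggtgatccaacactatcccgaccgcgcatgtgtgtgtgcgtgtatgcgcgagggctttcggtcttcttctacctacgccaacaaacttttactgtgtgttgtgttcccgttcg
ftz-f1 intron: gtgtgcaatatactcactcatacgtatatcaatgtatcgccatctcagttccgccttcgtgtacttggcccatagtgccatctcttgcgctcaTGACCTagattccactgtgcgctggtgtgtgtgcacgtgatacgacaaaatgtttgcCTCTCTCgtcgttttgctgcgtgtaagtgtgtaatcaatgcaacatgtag
The intronic stretch has 1 AGGTCA match, in the TGACCT orientation, and the promoter stretch has none.

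*Eip93F* (FBgn0264490, 3R 21949114–22014539, plus strand), which is needed for pupal and adult gene programmes, was also open, with 18 regions, 9 of them in all libraries. At the start of *Eip93F-RB* the percentile was 91.5 and 89.6 in control, 86.3 and 86.1 in *Cdk1-i*, and 87.8 and 76.6 in *fzr*. All 4 libraries of the other genotypes lay below both controls. Over all shared regions, both libraries lay below both controls in 21.0% for *Cdk1-i* and 33.2% for *fzr*. The log2 change at this start was -0.24 in *Cdk1-i* and -0.25 in *fzr* (limma adjusted p = 0.677 and 0.647). At the start of *Eip93F-RA* and *Eip93F-RC* the percentile was 95.7 and 92.7 in control, 76.8 and 90.3 in *Cdk1-i*, and 92.5 and 92.9 in *fzr*. The first *Cdk1-i* library was low there and the second close to the others. An intronic region near the 5′ end (21951211–21951854) stood at percentiles 91.8 and 94.7 in control, 91.7 and 92.2 in *Cdk1-i*, and 89.8 and 89.3 in *fzr*.

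**Figure D3:**
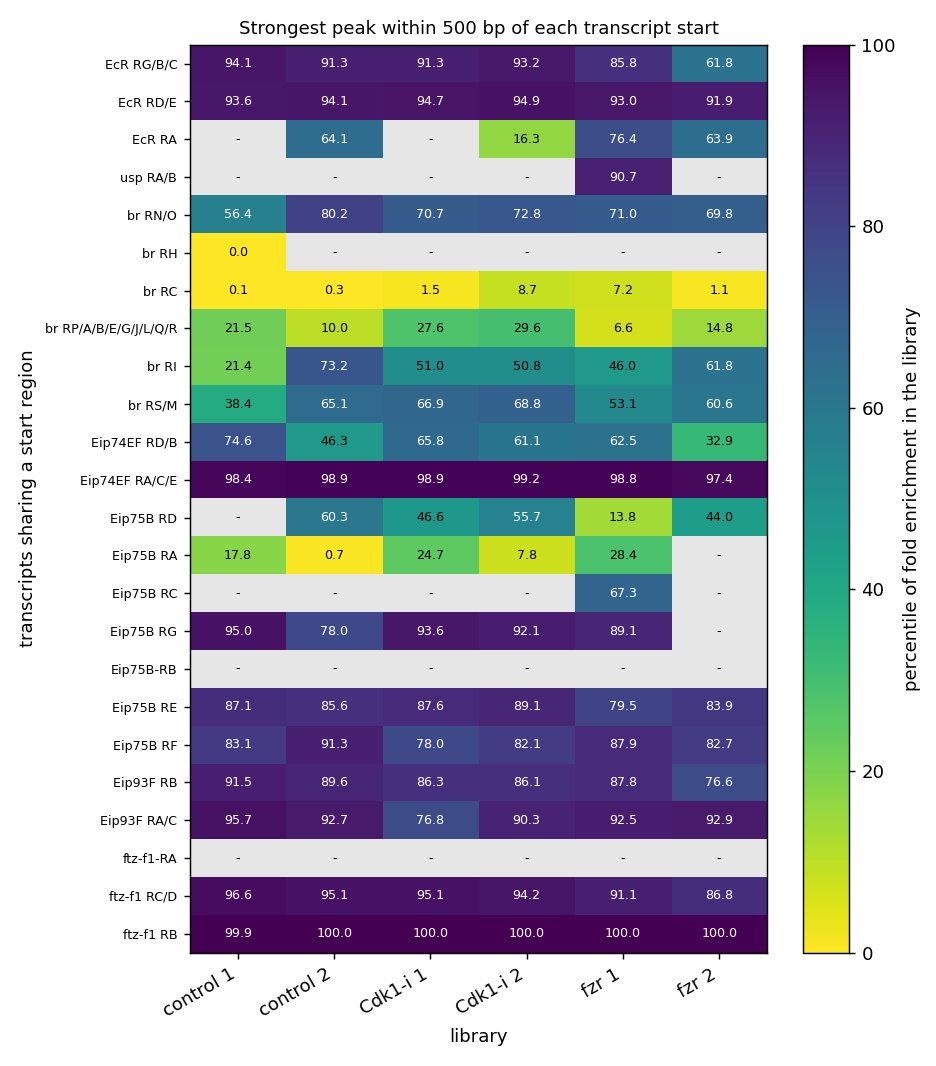
Percentile of fold enrichment (colour and number) of the strongest peak within 500 bp of each transcript start of the 7 genes (rows, transcripts sharing a start region together) in each library (columns); grey cells with a dash have no peak. The *ftz-f1-RB* and *Eip74EF-RA/C/E* rows are the strongest in all 6 libraries, the *br-RC* row stays below 9, and *Eip75B-RB* and *ftz-f1-RA* have no peak in any.

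Whether accessibility at these genes differed between genotypes was tested with limma, on the quantile-normalised log2 fold enrichment of the strongest peak of each region, over all 19441 regions with a peak in all 6 libraries. For *Cdk1-i* against control, none of the 117 regions of the 7 genes was called higher or lower at an adjusted p of 0.05, beside 0.0309% of all regions called higher and 0.129% called lower. At an unadjusted p under 0.05 there were 18 regions of the 7 genes (15.4%, 7 higher and 11 lower), against 10.6% of all regions. For *fzr* against control, none was called either, beside 0.0257% of all regions called higher and 0.00514% called lower. At an unadjusted p under 0.05 there were 9 (7.69%, 3 higher and 6 lower), against 11.1% of all regions. For *fzr* against *Cdk1-i*, none was called, beside 0.0154% of all regions, and 9 (7.69%) had an unadjusted p under 0.05, against 10.5%. The median log2 change of the 117 regions was -0.027 (*Cdk1-i*) and 0.0048 (*fzr*), whereas the median over all regions was 0.0035 and 0.0012. The median size of the log2 change, regardless of sign, was 0.20 for *Cdk1-i* and 0.17 for *fzr*, beside 0.17 and 0.18 over all regions and a median SE of 0.19. The typical change was thus of the size of its error, and single regions went beyond it.

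The lowest adjusted p-values belonged to 2 intronic regions in *Cdk1-i*. At *Eip75B* 18032842–18033173 the percentile was 55.02 and 66.8 in control, 0.604 and 10.4 in *Cdk1-i*, and 44.7 and 54.1 in *fzr*. The log2 change in *Cdk1-i* was -0.99 (SE 0.19, limma adjusted p = 0.0951), and both libraries lay far below all others. At *Eip93F* 21988051–21988587 the fold enrichment was 7.92 and 5.88 in control, 16.9 and 15.2 in *Cdk1-i*, and 12.01 and 6.84 in *fzr*. The log2 change in *Cdk1-i* was 0.85 (SE 0.17, limma adjusted p = 0.100), with both libraries above all others. They are printed as the sites with the largest difference, from dm6 chr3L:18032907-18033106 (minus strand) and chr3R:21988266-21988465 (plus strand), with GAGAG matches in capitals.
Eip75B intron: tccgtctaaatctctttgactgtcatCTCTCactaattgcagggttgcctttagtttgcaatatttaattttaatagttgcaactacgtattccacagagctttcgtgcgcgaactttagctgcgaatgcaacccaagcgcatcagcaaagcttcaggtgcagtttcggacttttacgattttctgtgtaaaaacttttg
Eip93F intron: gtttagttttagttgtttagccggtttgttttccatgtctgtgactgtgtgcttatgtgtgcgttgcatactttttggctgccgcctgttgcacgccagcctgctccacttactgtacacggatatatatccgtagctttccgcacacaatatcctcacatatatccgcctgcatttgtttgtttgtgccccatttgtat
Neither stretch has an AGGTCA match.

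Other large differences in *Cdk1-i* were a log2 change of -0.76 at an *Eip75B* intron (18027364–18027812) and -0.60 at the *Eip93F-RA* and *Eip93F-RC* start, and 0.66 and 0.60 at a pair of *ftz-f1* introns (18790901–18791669 and 18786339–18786802). The 3 lowest values in *fzr* were -0.67 at an *ftz-f1* intron (18771469–18771989), -0.63 at the *EcR-RB*, *EcR-RC* and *EcR-RG* start and -0.56 at an *Eip75B* intron (17956687–17958009). The 3 highest were 0.57 at the *ftz-f1* intron 18786339–18786802, 0.54 at an *Eip74EF* intron (17573452–17574183) and 0.44 at an *Eip75B* intron (18007162–18008211). None of these passed, with adjusted p from 0.282 to 0.588 by limma. The median log2 change of a gene's regions lay between -0.06 (*Eip74EF*) and 0.24 (*usp*, 1 region) in *Cdk1-i*, and between -0.09 (*Eip74EF*) and 0.06 (*ftz-f1*) in *fzr*. Regions with an unadjusted p under 0.05 were most frequent at *ftz-f1*, with 5 of 11 in *Cdk1-i* and 3 of 11 in *fzr*, and they went in both directions. Both comparisons share the control libraries.

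**Figure D4:**
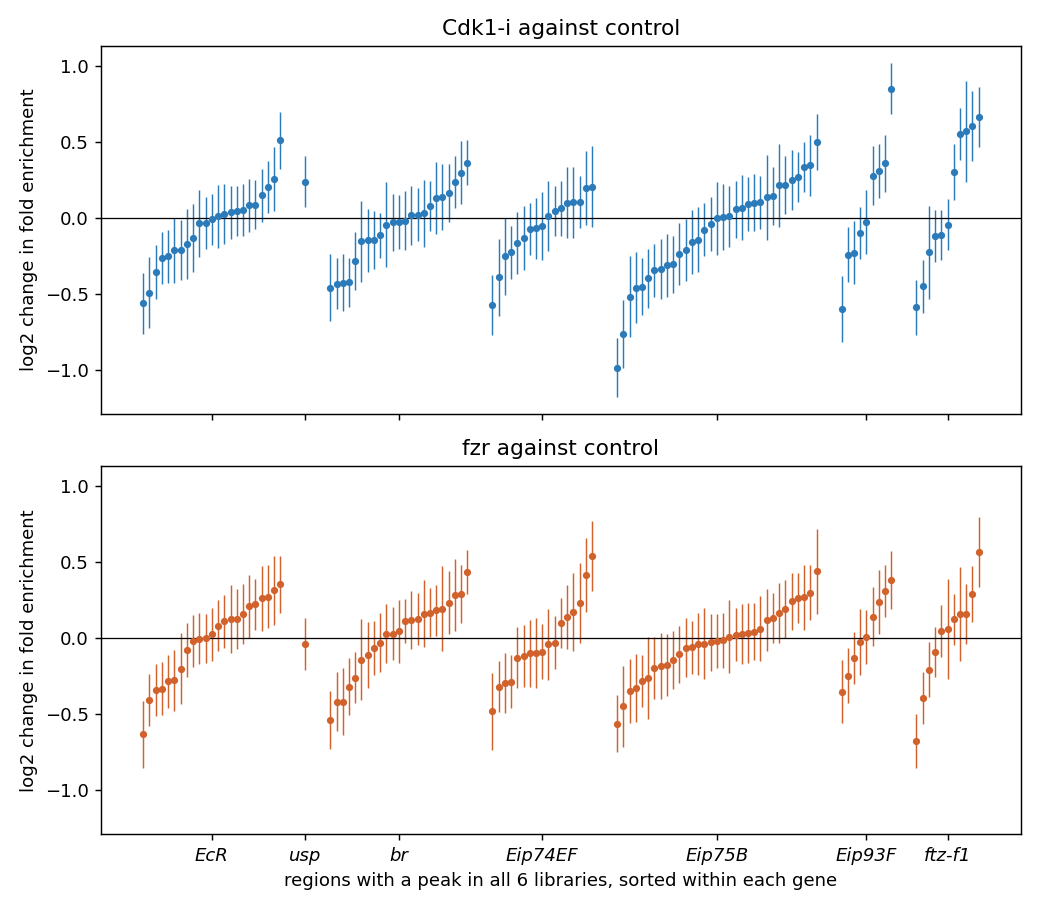
Log2 change in normalised fold enrichment (y axis) of the 117 regions with a peak in all 6 libraries, sorted by value within each gene (x axis), in *Cdk1-i* (top) and *fzr* (bottom) against control; bars are the SE of the fit. Points spread to both sides of 0 in each gene, from -0.99 at *Eip75B* to 0.85 at *Eip93F* in *Cdk1-i*.

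By percentile, both *Cdk1-i* libraries lay above both controls in 23 of the 117 regions (19.7%) and below both in 30 (25.6%), beside 23.7% and 21.0% of all regions. For *fzr* the numbers were 4 above (3.42%) and 38 below (32.5%), beside 8.53% and 33.2% of all regions. Lower percentiles in *fzr* were thus found over the genome, with a median change of -4.17 points over all shared regions and -2.47 over those of the 7 genes. The lists differ in length, which touches the percentiles. Each list was then cut to its 27119 peaks with the highest −log10 q. The median change at the 7 genes was then 0.0332, and 19 regions lay above and 21 below both controls in *fzr*. With the whole lists, the share below both controls in *fzr* was 10 of 23 regions for *EcR*, 4 of 11 for *ftz-f1*, 3 of 9 for *Eip93F*, 5 of 17 for *Eip74EF*, 9 of 33 for *Eip75B*, 6 of 23 for *br* and 1 of 1 for *usp*.

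Few regions appeared or disappeared. A region was called gained when both libraries of a genotype had a peak and neither control did, and lost in the reverse case. In *Cdk1-i*, 5 of the 206 regions were gained and 5 lost (2.43% each), beside 3.21% and 3.28% of all regions. In *fzr*, 3 were gained (1.46%) and 2 lost (0.971%), beside 1.06% and 6.07%. The gained regions of *Cdk1-i* were 2 introns of *EcR* (6128930–6129132 and 6153489–6153676), an intron of *br* (1600964–1601161), the upstream flank of *Eip75B* (18067809–18068004) and an intron of *Eip93F* (22003420–22003672). They were short, from 188 to 253 bp. The lost ones were the upstream flank (1572270–1572670) and an intron (1614644–1615083) of *br*, an intron of *Eip74EF* (17596181–17596519), the upstream flank of *Eip75B* (18066415–18066818) and an intron of *Eip93F* (22000186–22000556). In *fzr*, the region at the *EcR-RA* start, an *Eip75B* intron (18026618–18026861) and the same *Eip93F* intron 22003420–22003672 were gained, and introns of *EcR* (6115539–6116020) and *br* (1619767–1620173) were lost. With 1 library left out, fewer libraries must agree, so these counts tend to rise by construction. Without *fzr* replicate 1, 7 regions were gained and 24 lost in *fzr*, and without *fzr* replicate 2, 15 were gained and 4 lost. Without control replicate 1, 12 were gained and 14 lost in *Cdk1-i* and 5 and 10 in *fzr*, and without control replicate 2, 8 were gained and 19 lost in *Cdk1-i* and 5 and 14 in *fzr*.

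Several motifs were searched on both strands in the 200 bp around the summit of each shared region. AGGTCA is the half-site of nuclear receptors, and CAAGGTCA, which contains it, is the extended half-site bound by Ftz-F1. EcR and Usp bind an inverted pair, AGGTCA and TGACCT with 1 base between them, for which 2 mismatches in the 12 fixed bases were allowed. AGGTCA was found in 15 of the 117 regions of the 7 genes (12.8%), beside 830 of 19347 shared regions on the chromosome arms (4.29%). The matches were uneven between genes, with 5 of 23 regions of *br*, 5 of 17 of *Eip74EF* and 3 of 11 of *ftz-f1*. *Eip75B* had 1 of 33 and *Eip93F* 1 of 9, and the 23 regions of *EcR* and the 1 of *usp* had none. CAAGGTCA was found in 2 (1.71%, beside 0.491%), the inverted pair in 3 (2.56%, beside 0.445%), and GAGAG in 56 (47.9%, beside 31.3%). The median GC content was 51.5%, beside 50.0%. A match is a description of the sequence and does not show that a factor bound there.

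The inverted pair was found in 2 introns of *Eip75B* and 1 of *Eip93F*. The *Eip93F* stretch (chr3R:21951492-21951691, plus strand) and the *Eip75B* stretch with an intact half-site (chr3L:18007526-18007725, minus strand) are printed from dm6 to show the match, with the inverted pair and any AGGTCA or CAAGGTCA match in capitals.
Eip93F intron with the pair: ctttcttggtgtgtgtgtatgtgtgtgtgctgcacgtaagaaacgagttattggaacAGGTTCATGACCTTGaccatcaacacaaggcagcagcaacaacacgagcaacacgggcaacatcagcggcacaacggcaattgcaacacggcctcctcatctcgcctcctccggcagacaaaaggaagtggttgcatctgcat
Eip75B intron with the pair: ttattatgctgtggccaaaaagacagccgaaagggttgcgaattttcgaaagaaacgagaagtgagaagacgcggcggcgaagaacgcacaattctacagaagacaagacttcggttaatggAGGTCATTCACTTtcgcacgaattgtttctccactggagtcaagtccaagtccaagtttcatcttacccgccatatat
In the *Eip93F* stretch the pair overlaps a match to CAAGGTCA, read as TGACCTTG, and this is the region near the 5′ end that stood between percentiles 89.3 and 94.7 in all libraries. The *Eip75B* stretch belongs to the region with the third highest log2 change in *fzr*, 0.44 (SE 0.28, limma adjusted p = 0.588), where the percentile was 54.3 and 80.3 in control, 76.4 and 72.9 in *Cdk1-i*, and 67.3 and 87.6 in *fzr*. The control libraries spanned most of that range.

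**Figure D5:**
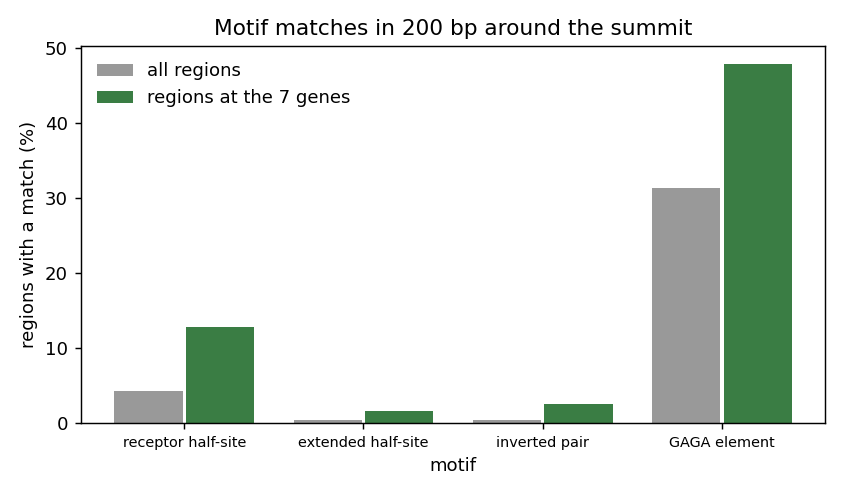
Share of regions (y axis, percent) with a match to each motif in the 200 bp around the summit, for all 19347 regions searched (grey) and the 117 regions of the 7 genes (green). The half-site AGGTCA was found in 12.8% against 4.29%, and the GAGA element in 47.9% against 31.3%. No region of *EcR* or *usp* had an AGGTCA match.

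Outside the 7 genes, 39 further genes of the pathway had 339 distinct regions, of which 189 were tested. None was called by limma in either comparison. At an unadjusted p under 0.05 there were 21 in *Cdk1-i* (11.1%) and 18 in *fzr* (9.52%), against 10.6% and 11.1% of all regions. A peak at a transcript start was found in all 6 libraries for 22 of the 39. Among 10 genes of hormone synthesis and uptake these were 7, including *shd*, the hydroxylase that makes the active hormone in target tissues, *Cyp18a1*, which inactivates it, and *Oatp74D*, the importer that brings it into cells. Of the synthesis genes known for their activity in the prothoracic gland, *sro*, *phtm* and *sad* were also among these 7, *dib* had a peak at a start in 5 libraries, and *nvd* and *spok* had none in any. Among 7 other nuclear receptors they were 3, *Eip78C*, *Hr3* and *Hr78*, and among 4 cuticle genes of prepupae and pupae 3, *Edg78E*, *Edg91* and *Pcp*. Among 7 receptor cofactors they were 2, the coactivator *tai* and the methyltransferase *trr*, and among 11 responsive regulators and effectors 7. In *Cdk1-i*, 9 of their regions were gained (2.65%) and 7 lost (2.06%), and in *fzr* 3 were gained (0.885%) and 10 lost (2.95%), beside the same shares of all regions as above (3.21%, 3.28%, 1.06% and 6.07%). Starts of neighbouring genes were not looked at for these 39 genes, so a peak at a start may also lie at that of another gene.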

How the data were processed

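ATAC-seq was performed by the authors on wing imaginal discs, with 2 libraries for each of 3 genotypes. The nf-core/atacseq pipeline was used for alignment (BWA-MEM, dm6), for removal of reads in blacklisted regions and for a MACS2 call on every library. The comparison of read counts made by the authors was not used here. Each deposited list gives, per peak, a fold enrichment over local background (a ratio), a −log10 p and a −log10 q (as −log10 values made by MACS2), and a score, which in the deposited lists is 10 times the −log10 q as a whole number. Depth is unknown, and peaks in the lists start at a −log10 q of 2.00 to 2.16.

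Genotypes were taken from the labels; the names of 4 lists exchange *Cdk1-i* and *fzr*. Peaks overlapping by at least 1 bp were merged across lists, and the strongest peak of each library represented a region. Percentiles are average ranks of fold enrichment within a list. limma 3.58.1 (R 4.3.3) was run on quantile-normalised log2 fold enrichment over regions with a peak in all 6 lists, with a trended prior, genotype as the only factor and Benjamini-Hochberg adjustment; it was tested on simulated data. All 6 libraries entered the fit, so 3 genotypes share 1 estimate of the spread. The study describes the 2 libraries of a genotype as biological replicates.

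Gene models were those of Ensembl 115 (BDGP 6.54), which has the dm6 coordinates, and sequences came from the RefSeq copy of that assembly. Tables and plots were made in Python 3.11.15 (NumPy 2.4.6, pandas 2.3.3, SciPy 1.17.1, Matplotlib 3.10.9). The regions named were those at a transcript start of the 7 genes, the region of each gene with the highest control percentile, the 3 highest and 3 lowest log2 changes per comparison, and those called, gained or lost; further regions were picked after their values were seen (the *ftz-f1* intron, the *usp* and *Eip93F* regions near the 5′ end, and the printed motif regions). Pathway genes *phm*, *EcI*, *Eip71CD* and *Eip55E* were matched as *phtm*, *Oatp74D*, *MsrA* and *Cth*. The genes and lists were chosen with earlier results of these data known.

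Alternatives were a minimum −log10 q of 5, equal list lengths, merging at 0.5 of the shorter peak, the gene body alone or with 20 kb, the class from the summit, a promoter of 250 bp, ranking by −log10 p, median centring, limma on percentiles or without a trend, all regions without a filter, exchanged labels, a replicate block and each library left out. Ranking X apart was added after the data were seen.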

Additional observations from a re-analysis of the deposited data

Results flagged for a closer look

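In 3 of the 117 regions of the 7 genes (2.56%), both *Cdk1-i* libraries stood on one side of both controls and both *fzr* libraries on the other, beside 919 of all 19441 shared regions (4.73%). In each of the 3, *Cdk1-i* was higher and *fzr* lower by percentile. Percentiles in *fzr* were lower over all shared regions too, with a median change of -4.17 points. The mean percentile of *Cdk1-i* minus that of *fzr* was 2.36 points at the *EcR-RD* and *EcR-RE* start, 11.3 points at the region downstream of *usp* near *Actn*, and 6.65 points at the *Eip75B-RE* start. After normalisation, the log2 change in *fzr* against control was -0.00076, -0.040 and -0.059 in the same order. In *Cdk1-i* it was 0.087, 0.24 and 0.10. By normalised values the *fzr* libraries overlapped the controls at each of the 3 regions. The difference in percentile between the genotypes was not tested, and with 2 libraries per genotype none of the 3 was called by limma in any comparison.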

How the results depend on the processing

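The log2 changes of the 12 region and genotype pairs named for their size kept their sign in every alternative fit that held the region. These pairs were picked as the extremes of the same data, which makes a kept sign likely by construction. The alternatives for the window, the summit class and the promoter width do not change the fit, so they could not change a sign. The median percentile change at the 7 genes, which was not tested, changed sign under 1 setting in *fzr* (equal lists) and, staying within 0.385 points of 0, under several in *Cdk1-i*. No region of the 7 genes was called in any comparison under any setting except the replicate block, which called 2 in *Cdk1-i* against control and 1 in *fzr* against *Cdk1-i*. These were the introns *Eip75B* 18032842–18033173 (limma adjusted p = 0.0113 with the block, and 0.0222 in *fzr* against *Cdk1-i*) and *Eip93F* 21988051–21988587 (0.0140). With the block, 212 regions of the genome were called in *Cdk1-i* against control and 122 in *fzr* against control, in place of 31 and 6. The deviations of replicate 1 from the group mean correlated at 0.18 between control and *Cdk1-i* and 0.346 between control and *fzr*, over 19441 regions. Between *Cdk1-i* and *fzr* the correlation was 0.0554. The labels give only a replicate number, which was not taken to pair the samples. Whether libraries with the same number shared a batch was not tested.

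Over the genome, the calls in *Cdk1-i* were 16 with equal lists, 19 without the filter and 0 on percentiles, and those in *fzr* were 2 without the filter and 0 on percentiles. With 1 library left out they ranged from 2 to 65 in *Cdk1-i* and from 0 to 1 in *fzr*. With exchanged labels, *Cdk1-i* took 6 calls, 3 gained, 2 lost and a median percentile change of -2.47, and *fzr* took 31 calls, 5 gained, 5 lost and -0.00382. With 1 library left out, fewer libraries must agree for a gain or loss. Gained regions of the 7 genes then ranged from 5 to 12 in *Cdk1-i* and from 3 to 15 in *fzr*. Lost ones ranged from 5 to 19 in *Cdk1-i* and from 2 to 24 in *fzr*. With equal lists, *fzr* had 1 gained and 0 lost and a median change of 0.0332. Lost regions numbered 3 in *Cdk1-i* with the gene body alone, 8 with 20 kb and 3 at a −log10 q of 5, and in *fzr* 7 with 20 kb and 1 at a −log10 q of 5. The intronic share of peaks, 76.2% over all libraries, was 80.4% by summit, 84.6% in the gene body alone, 59.2% with 20 kb and 78.8% with a promoter of 250 bp. The promoter share, 12.3%, was 10.3% by summit, 13.2% with equal lists, 9.58% with 20 kb and 9.67% with a promoter of 250 bp. The causes were not tested, other than what each setting changes by construction. The number of regions ranged from 183 with the gene body alone to 268 with 20 kb. A peak list has no value below its threshold, and this limits what can be said of regions without a peak.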

Other observations

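Among the other pathway genes, *chinmo*, a zinc finger regulator of larval and juvenile states, had the lowest adjusted p in *Cdk1-i* against control, 0.0763 by limma, with a median log2 change of -0.14 over its 13 tested regions. In *fzr* its lowest adjusted p was 0.325 and its median was -0.16. It was singled out after its values were seen, and it lost 1 region in *fzr*. *Blimp-1*, a repressor that delays *ftz-f1*, gained 2 regions in *Cdk1-i*, and *nvd*, *shd*, *Oatp74D*, *Met*, *Hr4*, *ImpL2* and *Eip63F-1* gained 1 each. *ImpE3* lost 2 regions in *Cdk1-i*, and *spok*, *sro*, *tai*, *Hr4* and *Edg84A* lost 1 each. In *fzr*, *nvd*, *Hr96* and *ImpL2* gained 1 region each, and besides *chinmo* the genes *sro*, *dib*, *E23*, *Hr4*, *ImpE1*, *ImpE3*, *Eip63F-1*, *Edg78E* and *Edg84A* lost 1 each. These counts were not tested.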
